A study of Homo sapiens with 30 samples.

Results

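The keratin genes on the array were defined as the probes whose gene name was KRT followed by a number and at most 1 letter, which leaves out the keratin-associated proteins, and 63 of the 41000 probes met this rule. They stood for 54 of the 30484 gene names on the array, of which 7 had more than 1 probe. The samples were 5 established breast cancer cell lines, HCC1954, MDA-MB-231, MDA-MB-361, T-47D and ZR-75-30, each treated with the growth factor BMP7 or with vehicle for 30 min, 1, 3, 6, 12 or 24 h. Every line and time point had 1 two-colour array, 30 in all, with the vehicle-treated cells in Cy3 and the BMP7-treated cells in Cy5, and each sample was a pool of 3 cultures. Thus the 6 arrays of a line were 6 time points and not replicates of 1 condition, and p-values between lines measure the spread over these arrays. Each line is a single culture model of 1 tumor, and for MDA-MB-231 and T-47D the medium held less serum than for the rest, so that the line and its medium cannot be told apart.

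Keratins are the intermediate filament proteins of epithelial cells. A filament is built from pairs of an acidic type I and a basic type II keratin, and the pair that a cell makes is characteristic of its kind of epithelium. In the breast, KRT8, KRT18 and KRT19 are typical of the luminal cells that line the ducts, whereas KRT5, KRT14 and KRT17 are typical of the basal layer, and KRT6, KRT16 and KRT13 are better known from squamous and activated epidermis. HCC1954 is a ductal carcinoma line with amplified HER2 and no hormone receptors, MDA-MB-231 is a mesenchymal-like line without hormone receptors or HER2 amplification, and MDA-MB-361, T-47D and ZR-75-30 are counted among the luminal lines. BMP7 is a secreted ligand of the TGF-β family that acts through SMAD proteins on the transcription of its target genes.

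The 63 keratin probes comprised 34 for type I and 29 for type II keratins. On the hg18 build that the files use, 30 type I probes lay on chromosome 17, from 36066281 to 37030561, and the other 33 probes lay on chromosome 12, from 50849752 to 51632897. The probes on chromosome 12 were all 29 type II probes and the 4 probes for KRT18, the type I gene that sits beside KRT8. The vehicle signal was well above background on every measured array for 19 keratin probes, on some arrays for 32 and on no array for 12. The 12 silent probes read KRT12, KRT26, KRT27, KRT28, KRT36, KRT72, KRT73, KRT74, KRT78, KRT82 and, with both of its probes, KRT77. Several of these, such as KRT26, KRT27, KRT28, KRT72, KRT73 and KRT74, are keratins of the hair follicle.

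Of the 54 genes, 33 had a promoter entry in RefSeq, among them KRT8 and KRT5 but none of the other luminal and basal keratins named above. The 100 bases upstream of the start site are given for 5 keratins that the results turn on, namely KRT8 and KRT5 as the luminal and the basal type II keratin, KRT75 and KRT4 for their levels in HCC1954, and KRT33A for its BMP7 ratios. All 5 are on the minus strand of GRCh38.p14 and are written 5′ to 3′ in the direction of transcription. Capitals mark each match on either strand to ATAAA, which resembles a TATA box, to GGGCGG, the core of a GC box, or to TGANTCA, an AP-1 like site.
KRT8, chr12:52926470-52926569: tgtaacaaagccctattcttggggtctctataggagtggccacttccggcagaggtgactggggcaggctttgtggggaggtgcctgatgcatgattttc
KRT5, chr12:52520395-52520494: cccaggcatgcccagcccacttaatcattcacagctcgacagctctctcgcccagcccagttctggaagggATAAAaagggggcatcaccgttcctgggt
KRT75, chr12:52434372-52434471: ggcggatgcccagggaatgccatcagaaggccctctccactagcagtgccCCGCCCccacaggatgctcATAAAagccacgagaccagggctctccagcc
KRT4, chr12:52814117-52814216: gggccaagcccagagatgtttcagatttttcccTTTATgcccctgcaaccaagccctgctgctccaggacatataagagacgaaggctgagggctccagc
KRT33A, chr17:41350829-41350928: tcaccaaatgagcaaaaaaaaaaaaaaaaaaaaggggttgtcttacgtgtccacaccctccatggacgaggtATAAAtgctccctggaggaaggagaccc

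The ATAAA match began 29 bases before the start site in KRT5, 31 bases before it in KRT75 and 28 bases before it in KRT33A. In KRT4 it was on the opposite strand, 67 bases before the start, and KRT8 had none. The KRT4 sequence as written also holds tataag nearer to the start, which the pattern ATAAA does not match. Across the family ATAAA was present in this window of 28 of 33 keratin genes (84.8%) and of 4413 of 27305 genes in all (16.2%). GGGCGG was present in 3 of the 33 keratin genes (9.09%) against 31.3% of all genes, and TGANTCA in 0 of 33 against 2.7%. These motifs were chosen after the sequences had been seen, and a match is a description of the letters, not of a bound site.

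The levels of the keratins in vehicle-treated cells were then compared between the lines. Levels are given as normalized log2 signals of the vehicle channel, so that a difference of 1 is a 2-fold change, and they can be compared between arrays for a probe but not between probes. In total, 42 of the 63 keratin probes differed between the 5 lines by at least 2-fold in limma (adjusted p below 0.05), a share close to that of all probes (63.8%). They comprised 16 of the 19 probes that were well above background on every array, 26 of the 32 that were so on some arrays and none of the 12 silent probes. In bulk samples such as these, fewer cells of a type and less RNA per cell cannot be told apart.

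The luminal keratins were high in most lines. KRT8 was lower in MDA-MB-231, and KRT19 was far lower in HCC1954. KRT8 (probe at chr12:51577293-51577352) had vehicle levels of 12.49, 13.34 and 13.82 (lowest, median and highest of 6 arrays) in MDA-MB-231. In the other lines its levels ranged from 15.67 to 16.49, and no array of MDA-MB-231 reached them. The mean was 13.23 ± 0.51 (SD, n = 6) in MDA-MB-231 against 16.01 ± 0.21 in HCC1954 and 15.95 ± 0.12 in MDA-MB-361, while T-47D had 16.14 ± 0.36 and ZR-75-30 had 16.32 ± 0.15. MDA-MB-231 was thus 7.33-fold below the mean of the other 4 lines (log2 difference -2.87, SE 0.14, adjusted p = 8.81e-17, limma). None of the 6 pairs among the other lines differed at an adjusted p below 0.05, the lowest being 0.098 between MDA-MB-361 and ZR-75-30. A second KRT8 probe (A_24_P67395) was 7.26-fold lower in MDA-MB-231 as well, but also 4.39-fold higher in ZR-75-30 than in the other 4 lines, in which the first probe did not differ by as much as 2-fold.

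KRT18, the usual partner of KRT8, had the same low line. Its vehicle levels in MDA-MB-231 were 14.48, 15.35 and 15.77 (lowest, median and highest), below all 24 arrays of the other lines, which ranged from 16.39 to 17.40. The mean was 15.31 ± 0.45 in MDA-MB-231, 16.84 ± 0.24 in HCC1954 and 16.98 ± 0.06 in MDA-MB-361, with 16.74 ± 0.14 for T-47D and 17.11 ± 0.22 for ZR-75-30 (SD, n = 6). The difference of MDA-MB-231 from the mean of the others was 3.04-fold (log2 -1.61, SE 0.12, adjusted p = 2.25e-12) by this probe and 4.75-fold and 5.08-fold by the 2 other KRT18 probes on the same strand. One more probe named KRT18 lies on the opposite strand and was dim, and KRT18 has many processed copies in the genome, so its signal may be shared.

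KRT19, a type I keratin without a tail domain, separated the lines differently. Its levels were 10.57, 11.09 and 12.23 (lowest, median and highest) in HCC1954 and 14.59, 15.36 and 15.99 in MDA-MB-231, whereas all 18 arrays of MDA-MB-361, T-47D and ZR-75-30 lay between 16.95 and 17.66. HCC1954 was 53.1-fold below the mean of the other lines (log2 -5.73, SE 0.18, adjusted p = 2.37e-21). MDA-MB-231 was 4.23-fold below MDA-MB-361 and 18.1-fold above HCC1954, with no overlap of arrays. The means of MDA-MB-361 (17.45 ± 0.11), T-47D (17.41 ± 0.23) and ZR-75-30 (17.46 ± 0.11) did not differ beyond their spread (adjusted p = 0.89 to 0.98).

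The basal keratins were high in HCC1954. KRT5 (chr12:51194889-51194948) had levels of 12.60, 12.70 and 13.02 (lowest, median and highest) in the 6 arrays of this line. Elsewhere it was well above background on 2 of 24 arrays, MDA-MB-231 at 30 min (6.50) and ZR-75-30 at 12 h (5.17). HCC1954 was at least 323-fold above MDA-MB-361 and at least 271-fold above T-47D, in which no array was well above background (adjusted p of the fit against all other lines = 3.90e-18). Here and below "at least" means that the dim line was set, on each of its arrays, to the lowest signal that counted as well above background or to its own signal if that was higher.

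KRT17 had levels of 13.89, 14.76 and 14.90 in HCC1954, and ZR-75-30 followed with 5.01, 7.24 and 8.25 (lowest, median and highest). The 6 arrays of T-47D were all not well above background, and HCC1954 was at least 968-fold above this line. The mean was 6.98 ± 1.09 in ZR-75-30, 4.76 ± 0.54 in MDA-MB-361 and 4.38 ± 1.08 in MDA-MB-231, and each of the latter lines had 3 of 6 arrays well above background. The 24 h array of ZR-75-30, at 5.01, was not well above background and lay among theirs. MDA-MB-231 and MDA-MB-361 did not differ beyond their spread (adjusted p = 0.485).

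The probes for KRT14, the type I partner of KRT5, disagreed in size. The one that was brighter on average (A_23_P4335, chr17:36992270-36992890) had levels of 9.64, 10.15 and 10.62 in HCC1954 and was 6.27-fold higher there than in the other lines (log2 2.65, SE 0.36, adjusted p = 4.16e-07). T-47D overlapped HCC1954 on this probe, because its arrays at 3 h (10.46) and 24 h (9.85) stood above its other 4 arrays (6.92 to 7.72). The other KRT14 probe (A_24_P265346, chr17:36993074-36993133) had 14.15, 14.29 and 14.84 in HCC1954 and at most 6.96 on any array of the other lines, a difference of 694-fold in the fit and of at least 593-fold with dim lines set to their limit. KRT14, KRT16 and KRT17 are close in sequence, and the probes may share signal.

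**Figure D1:**
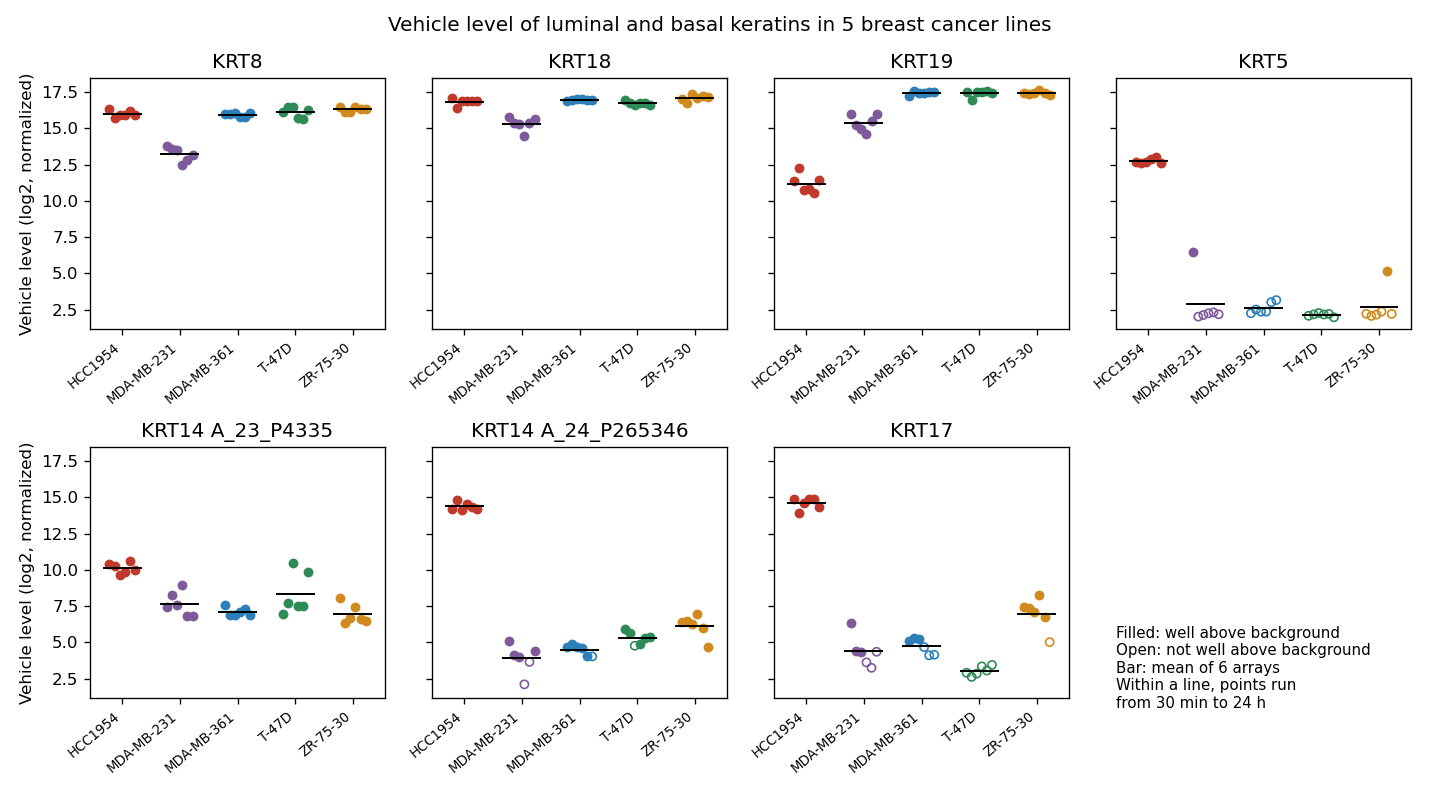
Vehicle level (normalized log2 signal, y axis) of the luminal keratins KRT8, KRT18 and KRT19 and the basal keratins KRT5, KRT14 (2 probes) and KRT17 in 5 cell lines (x axis), with a point per array in order of time, a bar at the mean of 6 arrays and open points where the spot was not well above background. All 6 HCC1954 arrays lie above every other array for KRT5 and KRT17 and below every other array for KRT19, and MDA-MB-231 is the low line for KRT8 and KRT18.

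The keratins of the fixed luminal and basal sets, averaged as deviations from the mean of the 5 lines, placed the lines as follows. The luminal set (KRT8, KRT18, KRT19) stood at log2 -1.29 in HCC1954, at -1.33 in MDA-MB-231, and at 0.83, 0.79 and 1.00 in MDA-MB-361, T-47D and ZR-75-30. The low value of HCC1954 came from KRT19 alone, since KRT8 and KRT18 were 0.60 and 0.30 above the mean of the other 4 lines there. That mean includes the low values of MDA-MB-231. The mean of HCC1954 was below those of T-47D and ZR-75-30 for KRT8 and of MDA-MB-361 and ZR-75-30 for KRT18. The basal set (KRT5, KRT14 by A_23_P4335, KRT17) stood at 6.03 in HCC1954 and at -1.50, -1.64, -1.97 and -0.93 in MDA-MB-231, MDA-MB-361, T-47D and ZR-75-30. With the other KRT14 probe it stood at 7.84 in HCC1954 and, in the same order of lines, at -2.35, -2.12, -2.57 and -0.81. Since the deviations sum to 0, the high value of HCC1954 places the other 4 lines below 0 for this set.

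Markers that are not keratins were set beside these levels. Against the mean of the other 4 lines, 9.56% to 13.5% of all probes were higher and 9.41% to 13.1% lower, depending on the line. Of 14 other basal and squamous genes on the array, 12 were higher and 1 was lower in HCC1954. In MDA-MB-231 5 were higher and 7 lower, in MDA-MB-361 2 and 7, in T-47D 1 and 8, and in ZR-75-30 3 and 5. The 10 luminal breast markers were lower in MDA-MB-231 in all 10 cases, lower in HCC1954 in 6 and higher in 2 (ELF3 and FOXA1), and in no case lower in the other 3 lines. All 6 general epithelial markers were lower in MDA-MB-231, among them CDH1 (E-cadherin), with a level of 8.11 there and 14.6 to 16.8 elsewhere. Of 7 mesenchymal markers, 5 were higher and 1 lower in MDA-MB-231, 2 were higher and 3 lower in HCC1954, and the counts were 2 and 1 in MDA-MB-361, 2 and 5 in T-47D and 0 and 4 in ZR-75-30. One of them, the filament gene VIM, had mean levels of 16.9 in MDA-MB-231 and 14.4 in HCC1954, against 4.90 to 7.74 in the other 3 lines. Of the 10 genes of leukocytes, fibroblasts and endothelium, 5 were well above background on all 6 arrays in HCC1954, 1 in MDA-MB-231, 4 each in MDA-MB-361 and T-47D and 3 in ZR-75-30. Of all 41000 probes, 24503, 22492, 24318, 21770 and 23685 were so in HCC1954, MDA-MB-231, MDA-MB-361, T-47D and ZR-75-30. PTPRC and DCN were not so on any array, and PECAM1 had a mean of 8.76 in HCC1954. In the same order of lines, 3, 0, 2, 3 and 1 of the 10 were higher and 2, 2, 2, 3 and 3 lower. The part of these genes in the keratin levels was not tested.

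HCC1954 was the line with the most keratins above the others. In this line 22 keratin probes were higher than the mean of the other 4 lines and 2 (KRT19 and KRT222P) were lower, at background shares of 10.4% and 10.2% of all probes. In ZR-75-30, 16 were higher and 13 lower (background 9.56% and 9.41%). In MDA-MB-231, 2 were higher and 26 lower (13% and 13.1%), for MDA-MB-361 the counts were 6 and 21 (13.5% and 12.8%), and T-47D had 7 higher and 17 lower (11.7% and 12.5%). The means of the other 4 lines share HCC1954, so that a keratin that was far higher there also counted as lower in the remaining lines. KRT222P, called lower in HCC1954, was not well above background on any array of HCC1954, MDA-MB-231 or MDA-MB-361. Its call rests on the signal in ZR-75-30 and T-47D. HCC1954 had 34 of the 63 keratin probes well above background on all of its arrays. ZR-75-30 had 28, MDA-MB-361 had 23, T-47D had 22 and MDA-MB-231 had 20. In the same order of lines, 24503, 23685, 24318, 21770 and 22492 of all 41000 probes were so. That is a larger share than among the keratins in every line.

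In HCC1954 11 keratin probes were at least 100-fold higher than the mean of the other 4 lines, among 46 such probes on the whole array (0.112%). They read 10 genes. KRT6B was at least 1226-fold, KRT17 at least 611-fold, KRT14 at least 593-fold, KRT6A at least 381-fold and KRT5 at least 289-fold higher. KRT15 followed with a measured 253-fold, KRT6C with at least 249-fold and KRT13 with at least 248-fold, then both KRT16 probes (at least 247-fold and 123-fold) and KRT23 (at least 143-fold). KRT6A, KRT6B and KRT6C are type II keratins of nearly the same sequence, and their probes may not tell them apart. No keratin passed this limit in MDA-MB-231 (background 0.107%), MDA-MB-361 (0.039%) or ZR-75-30 (0.022%), and KRT23 did so in T-47D (at least 125-fold, background 0.0585%).

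For the squamous keratins no array of another line came near those of HCC1954. KRT6B had levels of 13.57, 15.02 and 15.26 (lowest, median and highest) in HCC1954, and 1 of the 24 other arrays was well above background, in MDA-MB-361. KRT6A had 11.96, 13.88 and 14.01 in HCC1954, and it was also detected on all 6 arrays of MDA-MB-361, at 5.30 to 6.03. KRT13, a type I keratin of mucosal squamous epithelium, had 12.32, 12.75 and 14.23 in HCC1954 and at most 5.86 on any other array. Its usual partner KRT4 was shared with a second line. It had levels of 11.10, 11.24 and 13.17 in HCC1954 and 11.76, 12.04 and 12.09 in ZR-75-30, and these lines did not differ beyond their spread (log2 -0.37, SE 0.36, adjusted p = 0.46). ZR-75-30 was 52.2-fold above T-47D (6.27 ± 0.46), the next line in order.

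KRT15, a basal type I keratin, was well above background on all 30 arrays and thus gave a measured fold in every line. Its levels were 17.01, 17.20 and 17.95 in HCC1954, and T-47D was next with 10.23, 10.98 and 11.29 (lowest, median and highest). HCC1954 was 253-fold above the mean of the others (log2 7.98, SE 0.15, adjusted p = 1.16e-26). KRT75, a keratin of the hair follicle and nail bed, was well above background on all 6 arrays of HCC1954 (8.48, 10.02 and 10.63) and on none of the other 24. It was at least 37.7-fold above each of the other lines.

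**Figure D2:**
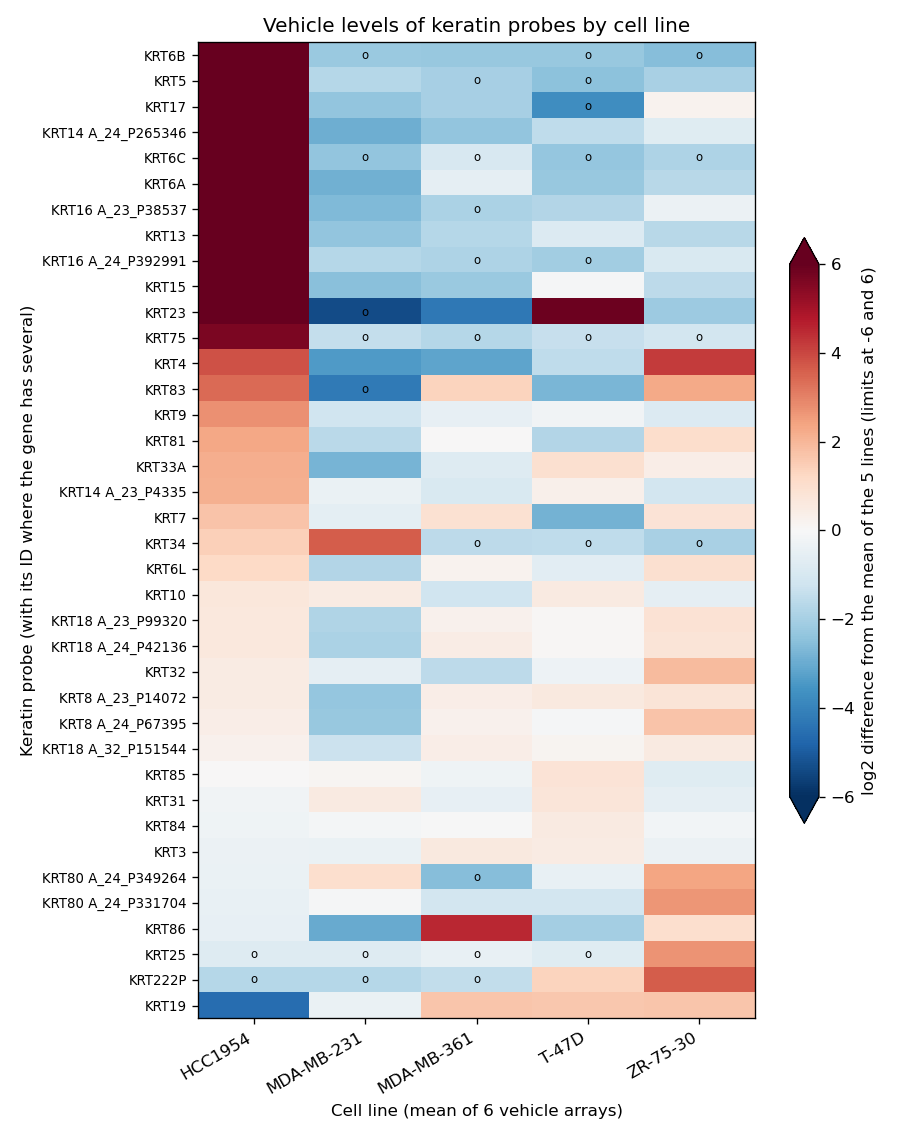
Mean vehicle level of 6 arrays per cell line (columns) for the 38 keratin probes that were well above background on all measured arrays of at least 1 line (rows), as the log2 difference from the mean of the 5 lines, with colours limited at -6 and 6 and "o" where no array of the line was well above background. HCC1954 is high from KRT6B to KRT75, KRT23 is shared with T-47D and KRT4 with ZR-75-30, and KRT86 stands out in MDA-MB-361.

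Some keratins were high in lines other than HCC1954. KRT23, a type I keratin, had levels of 14.04, 14.77 and 14.86 (lowest, median and highest) in HCC1954 and 13.96, 14.36 and 15.08 in T-47D, which did not differ beyond their spread (adjusted p = 0.78). In ZR-75-30 it had 5.49 to 7.26, in MDA-MB-361 3.67 to 4.74, and in MDA-MB-231 it was not well above background on any array. HCC1954 was at least 1208-fold and T-47D at least 1087-fold above MDA-MB-231.

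KRT86, a type II hair keratin, had levels of 14.85, 15.17 and 15.29 in MDA-MB-361 and at most 12.07 on any array of the other lines. MDA-MB-361 was 51.3-fold above their mean (log2 5.68, SE 0.20, adjusted p = 5.00e-20), and ZR-75-30 (11.60 ± 0.31) was next. The related hair keratin KRT83 was high in HCC1954 (10.77 ± 0.51), ZR-75-30 (9.62 ± 0.28) and MDA-MB-361 (8.67 ± 0.11), and was not well above background on any MDA-MB-231 array. KRT81, KRT83 and KRT86 lie side by side and are close in sequence, so their probes may share signal.

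In ZR-75-30 the 16 higher probes were 7 of type I and 9 of type II keratins. KRT80 had levels of 14.68, 15.28 and 15.53 there, 10.1-fold above the mean of the other lines (log2 3.34, SE 0.16, adjusted p = 3.65e-16). Its second probe was at least 5.47-fold above the mean of the other lines in ZR-75-30 and, unlike the first, also higher in MDA-MB-231. KRT25, a type I keratin of the inner root sheath of the hair, was well above background on all 6 arrays of ZR-75-30 (5.55, 6.17 and 6.79) and on no other array, a difference of at least 2.69-fold against each line. KRT222P (now KRT222), a type I gene, was at least 7.23-fold above the mean of the other lines. T-47D, with 4 of 6 arrays well above background, was the nearest to ZR-75-30 for this probe.

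In MDA-MB-231, KRT34, a type I hair keratin, had levels of 7.17, 7.80 and 8.51 and was at least 8.05-fold above the mean of the other lines (adjusted p = 1.88e-15), with HCC1954 next (5.63 ± 1.01) and the other 3 lines not above background. It was higher there on all 6 arrays. The only other higher probe of that line was the second KRT80 probe. KRT7, which is used beside KRT19 to mark simple glandular epithelium, was 11.7-fold lower in T-47D, with levels of 8.98, 9.14 and 9.52 there and at least 10.58 on every array of the other lines.

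The arrays of T-47D at 3 h and 24 h and of MDA-MB-231 at 6 h had the fewest spots well above background (from 51.7% to 57%, against up to 68.1%). Outlier spots, of which the MDA-MB-231 array had 2741, count here as not above background. Several keratin probes were high on these arrays of their line. KRT81 had vehicle levels of 13.02 and 13.40 on the 2 T-47D arrays and 10.05 to 11.32 on the other 4, and in MDA-MB-231 14.39 at 6 h and 10.49 to 12.06 at the other times. The dim KRT18 probe on the opposite strand had 8.98 and 8.37 on the 2 T-47D arrays and 4.25 to 4.82 on the other 4. Without these 3 arrays 22 keratin probes were higher in HCC1954, as with them, and 5 rather than 7 in T-47D. The difference for KRT14 (A_23_P4335) in HCC1954 was then 2.94 on the log2 scale.

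The level of vehicle-treated cells was also compared between 12 to 24 h and the first hour over all lines. None of the 63 keratin probes changed in limma (background 0.0268%). The lowest adjusted p was 0.505, with 4 probes at an unadjusted p below 0.05, and the differences ranged from -0.69 (KRT17) to 0.46.

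Within HCC1954, however, the 1 h array stood apart for some keratins, and this pattern was chosen after the values were seen. The vehicle level of KRT6C was 10.93 at 1 h and 12.35 to 12.94 at the other 5 times. KRT6A (11.96 against 13.28 to 14.01), KRT6B (13.57 against 14.75 to 15.26) and KRT75 (8.48 against 9.92 to 10.63) were low on this array as well. KRT4 was high, at 13.17 against 11.10 to 11.74, and so was KRT13, at 14.23 against 12.32 to 13.10. The type I probes of KRT17 (13.89 against 14.35 to 14.90) and KRT9 (9.41 against 10.14 to 10.40) were lowest on this array too.

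The BMP7 channel of the same array moved with the vehicle channel. The difference of the 1 h array from the mean of the other 5 was -1.84 in vehicle and -1.61 in BMP7-treated cells for KRT6C, -1.83 and -1.71 for KRT6A, 1.57 and 1.71 for KRT13, and 1.88 and 2.01 for KRT4. KRT5 hardly differed, by -0.18 and -0.07. In total 6 of 34 keratin probes lay more than 1 log2 unit outside the range of the other 5 arrays, against 1.82% of 24503 probes. The share of all probes ranged from 0.02% to 1.23% for the other HCC1954 arrays. The array had 62.8% of its spots well above background in both channels, within the range of the other arrays of the line. Whether the cultures or the hybridization of this time point differed was not tested.

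**Figure D3:**
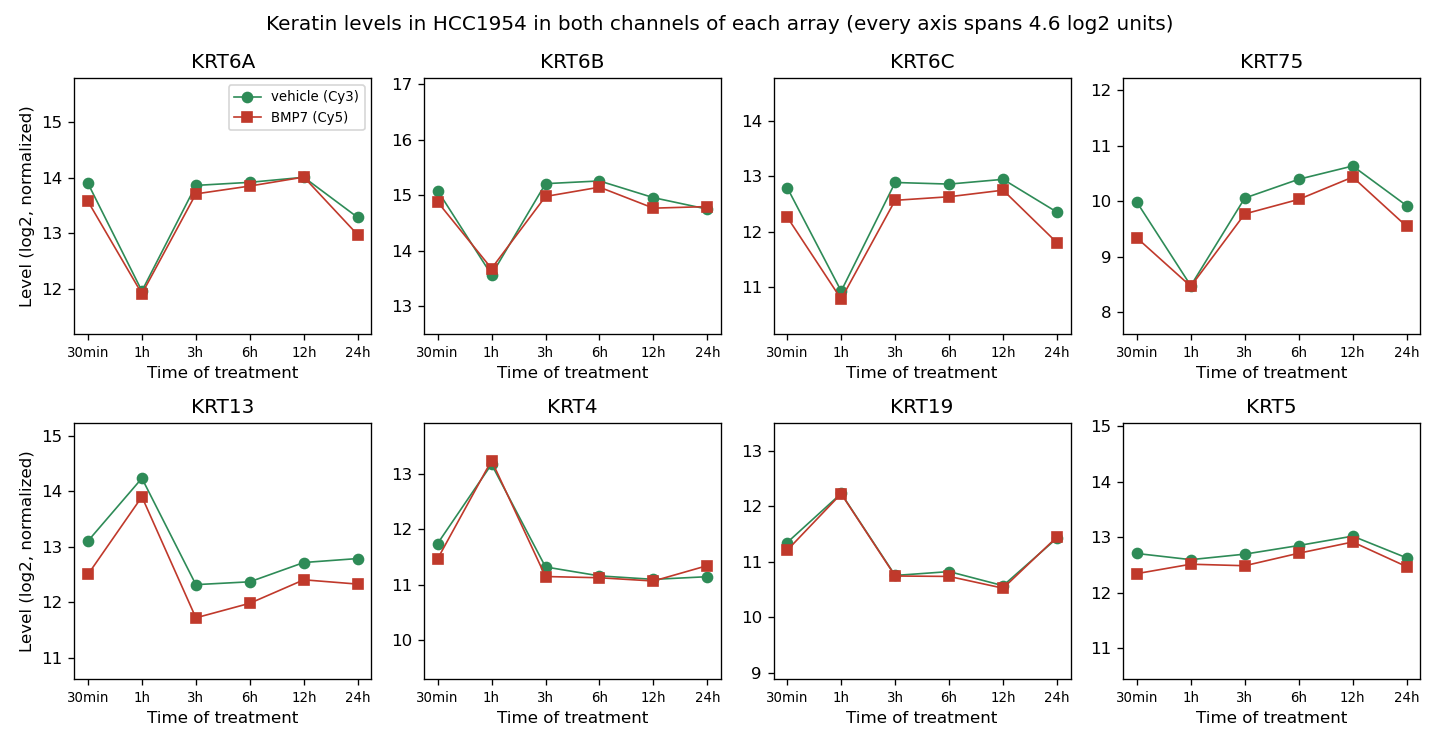
Normalized log2 signal (y axis) of 8 keratins in HCC1954 against the time of treatment (x axis), with the vehicle and the BMP7 channel of each array as separate points and 1 array per time point. At 1 h both channels are low for the KRT6 genes and KRT75 and high for KRT4, KRT13 and KRT19, while KRT5 is level and the channels stay close to each other.

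The effect of BMP7 was measured as the log2 ratio of BMP7 to vehicle on each array, where both channels were well above background. Of 5 known BMP targets checked, 4 rose from 30 min to 3 to 24 h. Their log2 changes were 1.05 for ID1, 1.17 for ID2, 0.92 for ID3 and 0.67 for SMAD6 (adjusted p = 0.0225, 4.80e-05, 0.00523 and 0.00753, limma). SMAD7 changed by 0.20 and did not pass (adjusted p = 0.259, limma). By line, the mean ratio over the 6 times was higher than 0 for 4 of these 5 genes in HCC1954 and MDA-MB-361. It was so for 3 of the 4 tested in MDA-MB-231, for 1 of 5 in ZR-75-30 and for 0 of 5 in T-47D. No keratin changed from 30 min to 3 to 24 h (0 of 23, background 4.96%). The lowest adjusted p was 0.193 and 1 probe had an unadjusted p below 0.05. The mean ratio over the 5 lines did not differ from 0 for any of 21 keratin probes tested either (background 0.8%), with the lowest adjusted p at 0.122 and 4 probes at an unadjusted p below 0.05. These means lay between -0.16 and 0.22.

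Line by line, the keratin ratios were small. In HCC1954, 10 of 35 keratin probes were lower after BMP7 and 1 was higher, where 5.17% and 4.2% of all probes were so. In MDA-MB-231, 2 of 23 were higher and none lower (1.23% and 0.763%). MDA-MB-361 had 2 of 24 higher and 1 lower (7.88% and 8.41%), T-47D had 1 of 26 each way (8.57% and 10%), and ZR-75-30 had 4 of 30 higher and 1 lower (8.2% and 8.98%). Since BMP7 was in Cy5 on every array and no dyes were swapped, a dye effect of a probe and an effect of BMP7 cannot be told apart, and a probe with the same ratio in several lines is the one this touches most.

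In HCC1954 the keratin ratios leaned to one side. Of the 35 keratin probes tested, 27 had a mean ratio below 0, with a median of -0.15, whereas 48.3% of all probes were below 0 and their median was 0.01. KRT33A, a type I hair keratin, had the largest difference. Its log2 ratios were -0.73, -0.37, -0.50, -0.48, -0.57 and -0.50 from 30 min to 24 h, so that all 6 arrays were below 0, and the mean of -0.52 (SE 0.08, adjusted p = 0.000196) was 69.5% of the vehicle level. KRT13 had ratios of -0.60, -0.33, -0.60, -0.39, -0.31 and -0.46 and a mean of -0.45 (SE 0.08, adjusted p = 0.00599). Both KRT16 probes were lower, with means of -0.40 and -0.38 (adjusted p = 0.0182 and 0.00791) and all 12 values below 0.

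The other keratins called in HCC1954 were lower by less. They were KRT6C (-0.33), KRT8 (-0.32), KRT75 (-0.31), 1 probe of KRT18 (-0.29), KRT83 (-0.27) and KRT17 (-0.26), each below 0 on all 6 arrays, with adjusted p between 0.0125 and 0.0428. KRT5, at -0.36, -0.08, -0.21, -0.14, -0.11 and -0.16, was below 0 on every array as well but did not pass the test. Over all lines, KRT83 was above 0 on 1 of 19 measured arrays. KRT6C and KRT75 had ratios in HCC1954 alone, so that their sign could not be compared with other lines. The lower ratios in HCC1954 were not shared by all probes of a gene. For KRT8 the second probe had values from -0.32 to 0.31, and for KRT18 the probe named above had -0.43 to -0.21 while the brightest one had -0.04 to 0.35. The 30 min array was the lowest of the 6 for 6 of the 10 lower probes, those of KRT33A, KRT13, KRT75, KRT83 and KRT17 and one of KRT16. It was also the only array of the line in the second scan batch, and in the first batch alone 7 rather than 11 keratin probes passed.

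These calls depended on the dye normalization. With normexp and median scaling alone none of the 10 lower probes passed the test (adjusted p = 0.166 to 0.970). The mean ratio was then -0.26 for KRT33A, -0.06 for KRT13, -0.08 and -0.13 for KRT16, -0.12 for KRT75 and -0.02 for KRT83, and it was above 0 for KRT6C (0.02), KRT8 (0.36), KRT18 (0.47) and KRT17 (0.26). Over the 18 alternatives run for each, KRT33A and KRT13 passed in 17, KRT75 in 10 and KRT17 in 8.

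KRT33A went the other way in MDA-MB-361. There its ratios were 0.33, 0.15, 0.26, 0.39, 0.47 and 0.19, all above 0, with a mean of 0.30 (SE 0.08, adjusted p = 0.0132). In T-47D all 6 were below 0 (-0.35 to -0.12), with a mean of -0.21 that did not pass the test (adjusted p = 0.0625), and in MDA-MB-231 and ZR-75-30 the signs were mixed. The difference between the lines was itself tested and passed for KRT33A (F test, adjusted p = 0.00125). In all 5 of 21 keratin probes differed between lines in this test, a share like that of all probes (23.9%). The others were KRT19 (0.013), KRT3 (0.0172) and a probe each of KRT18 (0.0261) and KRT14 (0.0418).

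The remaining calls were of mixed direction. In T-47D, the brighter KRT8 probe had ratios of -0.37, -0.70, -0.60, -0.25, 0.13 and 0.01, below 0 up to 6 h only. Its mean was -0.30 (adjusted p = 0.00983). The second KRT8 probe (A_24_P67395) had 0.01, 0.10, 0.08, 0.41, 0.58 and 0.30 in this line, all above 0. KRT19 was 2.14-fold higher at 1 h and had ratios of 0.37 at 30 min and -0.16, 0.35, 0.16 and 0.41 from 3 to 24 h, with a mean of 0.37 (adjusted p = 0.0059). This call rested on the 1 h array, without which the mean was 0.23 (adjusted p = 0.055, with 0.000683 to 0.381 over all alternatives). KRT8 was not called in T-47D without that array either, and no keratin was.

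In ZR-75-30, KRT84, a type II hair keratin, had ratios of 0.34, 0.41, 0.26, 0.61, 0.16 and 0.24 and a mean of 0.34 (SE 0.06, adjusted p = 0.000876). It was also higher in HCC1954 (0.26, adjusted p = 0.0112) and MDA-MB-231 (0.26, adjusted p = 0.0452), and above 0 on 26 of the 29 arrays measured, with means of 0.17 in MDA-MB-361 and 0.04 in T-47D that did not pass. KRT10 (0.36), KRT3 (0.56) and 1 probe of KRT14 (0.40) were higher and KRT83 (-0.26) was lower in ZR-75-30. The ratios of this KRT14 probe (A_23_P4335) were -0.07, 0.33, -0.01, 1.87, 0.07 and 0.22, so that the 6 h array set the mean. Without the 6 h array its mean was 0.11 (adjusted p = 0.45, with 0.0247 to 0.51 over all alternatives). The other KRT14 probe (A_24_P265346) had -0.30, -0.05, 0.10, -0.31, 0.02 and 0.11, and was thus below 0 on the 6 h array. Without that array 1 keratin, KRT84, passed in ZR-75-30, rather than 5.

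Of the other calls, KRT3 was higher in MDA-MB-361, with ratios of 0.49, 0.78, 0.50, 0.41, 0.33 and 0.28 (mean 0.47, SE 0.13, adjusted p = 0.0151). KRT86, the keratin with the highest vehicle level in that line relative to the others, had a ratio below 0 there. Its mean was -0.32 (adjusted p = 0.0232), with all 6 arrays below 0, but 0.09 with normexp and median scaling. In MDA-MB-231, KRT81 had a mean of 0.27 (adjusted p = 0.0452) and was above 0 on all 6 arrays. It passed in 10 of 18 alternatives and KRT84 in 9 of 18, and with the slide as a random block no keratin passed in this line (adjusted p = 0.0546 and 0.0799).

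**Figure D4:**
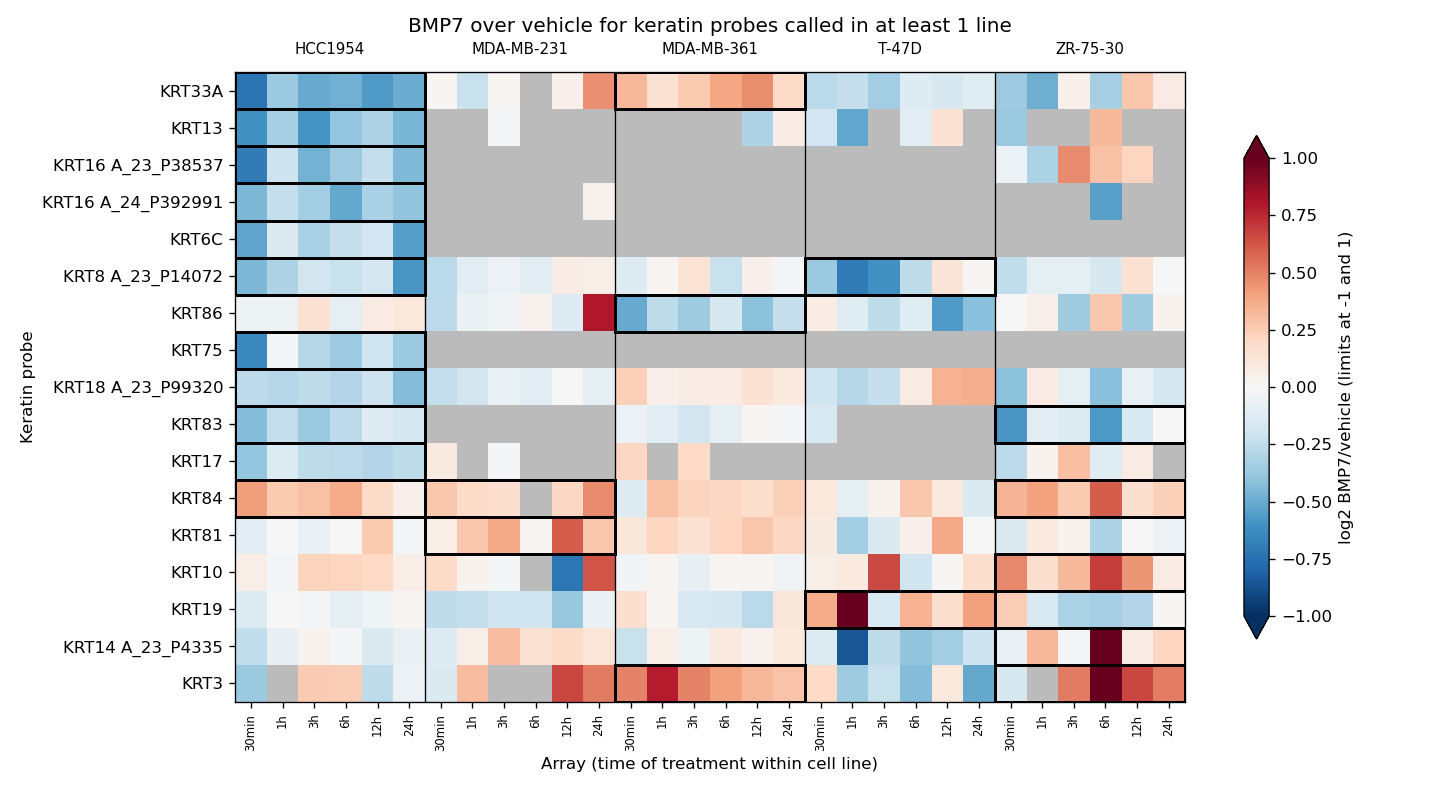
Log2 ratio of BMP7 to vehicle for the 17 keratin probes that passed the test in at least 1 line (rows) on each of the 30 arrays (columns, by line and time), with colours limited at -1 and 1, grey where a channel was not well above background and a black frame around each line in which the probe passed. HCC1954 holds 10 frames of lower ratios and 1 of higher ratios. The values past 1 lie on the T-47D 1 h (KRT19) and ZR-75-30 6 h (KRT3 and the KRT14 probe A_23_P4335) arrays.

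Changes of 2-fold or more, the size used for differentially expressed probes in the study, were found for 5 of 867 keratin values (0.577%), a share near that of all values (0.798%). KRT19 in T-47D at 1 h was 2.14-fold higher. The others were in ZR-75-30 at 6 h, namely KRT31 (2.03-fold), KRT85 (2.09-fold), KRT3 (2.39-fold) and KRT14 (A_23_P4335, 3.65-fold), all higher. The other KRT14 probe had a log2 ratio of -0.31 in ZR-75-30 at 6 h. On the ZR-75-30 6 h array 2217 of 26034 probes (8.52%) reached 2-fold, more than on any other array. No keratin probe reached 2-fold on 3 or more arrays.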

How the data were processed

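Feature Extraction files of 30 two-colour Agilent arrays were used, with vehicle in Cy3 and BMP7 in Cy5 on each. Per the file headers, version 9.5.1.1 of that software made the deposited intensity values (background corrected and dye normalized by linear and lowess fits) and the deposited log10 ratio of Cy5 over Cy3. The authors also deposited log2 ratios centered on each array, which were used as an alternative.

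Control and outlier spots were left out. Vehicle levels are log2 processed intensities after Aquantile normalization. Ratios were changed to log2, centered on the array median and kept where both channels were well above background. Probes were tested in limma 3.58.1 (R 4.3.3), fitted on all probes, with Benjamini-Hochberg adjustment, a threshold of 0.05 and, for vehicle, at least 2-fold. A line needed 4 ratios, the time test 24. The fits were tested on simulated data.

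Named were the 3 luminal and 3 basal keratins by their brightest probe, 12 others with the largest range between lines, every keratin past a BMP7 test (at most 10 per test) and, from other lists, up to 4 genes. Some marker genes of these lists are not reported here. The other keratins named, and the marker genes beyond these, were chosen after their values were seen. The members and lists were chosen with earlier results of these data known. RefSeq (GRCh38.p14) gave promoters, and 57 of 63 probes matched its gene table by accession.

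Alternatives were 75th percentile scaling, normexp (offset 50), other filters, no fold minimum, slide, scan batch or time in the fit, and each time point left out. Those without single arrays were added after seeing the data. The number of arrays limits the precision.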

Additional observations from a re-analysis of the deposited data

Results flagged for a closer look

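Of 71 groups of 4 to 6 arrays examined for the named keratins, 11 held an array far from the others. Chance gives about 1 in 20 for independent groups of replicates. The arrays here were time points and the groups shared arrays, so that this rate is no exact measure. In HCC1954 6 of the 11 were vehicle levels at 1 h, namely KRT18 (16.39, the others 16.87 to 17.12), KRT6B (13.57), KRT6A (11.96), KRT6C (10.93), KRT75 (8.48) and KRT4 (13.17, the only one above the others). In the same line the ratio of the KRT18 probe A_23_P99320 was lowest at 24 h (-0.43). KRT18 in MDA-MB-231 was low at 6 h (14.48 against 15.29 to 15.77), on an array with 2741 outlier spots. This array was among those with the fewest spots well above background. KRT19 in T-47D was low in vehicle at 1 h (16.95 against 17.46 to 17.58), the array of its 2-fold ratio. On the ZR-75-30 6 h array the vehicle level of KRT83 was high (10.17 against 9.46 to 9.64). So was the ratio of the KRT14 probe A_23_P4335 (1.87 against -0.07 to 0.33). The part of these arrays' quality in the values was not tested.

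The BMP7 ratio differed between lines for 5 keratin probes in the F test of limma. The adjusted p was 0.00125 for KRT33A, 0.013 for KRT19, 0.0172 for KRT3, 0.0261 for KRT18 (A_23_P99320) and 0.0418 for KRT14 (A_23_P4335).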

How the results depend on the processing

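The 19 named vehicle differences kept their direction and stayed past the threshold in all 304 alternatives run. Of 396 alternatives for the 22 named BMP7 ratios, 290 stayed past the threshold, 101 kept only their direction and 5 turned. These 5 arose with normexp and median scaling, which fits no lowess curve to the dyes, and were 0.018 for KRT6C, 0.36 for KRT8, 0.47 for KRT18 and 0.26 for KRT17 in HCC1954 and 0.090 for KRT86 in MDA-MB-361. No cause was tested beyond what the settings themselves change.

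In vehicle, 75th percentile scaling gave 4 lower keratins in HCC1954 and 13 higher in T-47D. Normexp with loess gave 1 lower in HCC1954, and 1, 3 and 2 higher in MDA-MB-231, MDA-MB-361 and T-47D. Without a minimum fold 7 were lower in HCC1954, 12 higher in MDA-MB-361 and 14 higher in T-47D. With each time point left out in turn 41 to 45 probes differed between lines, 2 to 3 were lower in HCC1954, and 5 to 10 were higher in T-47D.

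For the BMP7 ratios the calls in HCC1954, MDA-MB-231, MDA-MB-361, T-47D and ZR-75-30 were 11, 2, 3, 2 and 5. With all spots they were 7 in HCC1954, 7 in MDA-MB-361 and 4 in T-47D. Normexp and median scaling gave 4, 6, 8, 0 and 0. The authors' log2 ratios gave 0 in MDA-MB-231 and 6 each in MDA-MB-361 and T-47D. The first scan batch alone gave 7 in HCC1954, 6 in MDA-MB-361 and 2 in ZR-75-30. The slide as a random block gave 0 in MDA-MB-231. Single arrays mattered too, with 0 calls for MDA-MB-231 without the HCC1954 1 h array, 5 in MDA-MB-361 and 1 in ZR-75-30 without the ZR-75-30 6 h array, and 0 in T-47D without its 1 h array. Leaving out each time point gave, in the same order of lines, 4 to 9, 0 to 2, 1 to 3, 0 to 3 and 1 to 5.

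The mean over lines gave 7 calls with normexp and median scaling and 1 with the cell line as a random block, against 0. The number that differed between lines was 9 with all spots, 0 with normexp and median scaling, 10 with the authors' ratios, 3 with the slide as a block, 3 without the 3 arrays with the fewest spots above background, and 1 to 4 with a time point left out, against 5. The 5 values of 2-fold became 44 with all spots, 59 with normexp and median scaling, 3 with normexp and loess, 1 in the first scan batch and 1 at 3-fold. No paired analysis was possible because the labels give no replicate numbers and each line and time point had 1 array. The BMP7 ratio itself compares both channels of an array, and with the time point as a term the counts between lines were as without it. Signal over background limits KRT5 to bounds on most arrays outside HCC1954, KRT17 on many and the KRT14 probe A_24_P265346 on a few. The KRT14 probe A_23_P4335 was well above background on all 30 arrays. Low signal also left 13 of the 63 probes with no ratio.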
